A study of Mus musculus with 6 samples.

Results

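The genes described here are 9 transcription factors that pattern the embryonic forebrain and keep its progenitor cells dividing, *Emx1*, *Emx2*, *Otx1*, *Otx2*, *Sox1*, *Sox2*, *Sox3*, *Fezf2* and *Nkx2-1*. They were chosen by name and by where they are known to act, but with earlier results of these data already known. They serve as a gauge of brain tissue in each dissection, and all 9 were found among the 38553 genes of the series. RNA-Seq was performed on poly(A)+ RNA from microdissected craniofacial tissue of mouse embryos at E12.5 (E for embryonic day). The 3 controls carried floxed *Rbfox2* alleles (*Rbfox2* flox/flox) and no Cre. The study's methods also list *Rbfox2* flox/+ controls and controls with Cre, without saying which served for RNA-Seq. The 3 *Rbfox2* mutants carried the same floxed alleles together with *Pax3* Cre/+, a Cre recombinase knocked into one *Pax3* allele, which acts in neural crest cells and in mesodermal derivatives such as the somites. The study also found Pax3 protein in the dorsal neural tube at earlier stages. Whether forebrain cells lost *Rbfox2* was not tested. Against controls without Cre, the mutants differ both in *Rbfox2* deletion and in the Cre allele, and cells outside the *Pax3* lineage keep *Rbfox2*.

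Early in the forebrain, regional identity is laid down by transcription factors that are switched on in overlapping domains of the neural tube. Otx factors mark the anterior neural plate, Emx factors the dorsal telencephalon from which the cortex forms, and Nkx2-1 the ventral forebrain and hypothalamus, while Sox1, Sox2 and Sox3, the SOXB1 group, hold neural progenitors in an undifferentiated state. The face lies directly against the forebrain at this stage, while most facial mesenchyme comes from neural crest. Several of the genes also have sites outside the brain, among them the olfactory epithelium, the eye, the oral epithelium and, for *Nkx2-1*, the thyroid and lung.

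The deposited values were FPKM, fragments scaled to gene length and to the fragments mapped in the sample, so levels can be compared between genes per length, but the files hold no read counts and no counting interval is given. The samples summed to between 528123 and 590174 FPKM. *Rbfox2* was at 58.4, 65.0 and 61.3 FPKM in control replicates 1, 2 and 3 and at 38.1, 36.3 and 34.3 in the mutants, and every mutant was below every control. Facial mesenchyme genes were abundant in all samples, with *Prrx1* between 76.1 and 99.5 FPKM. The labels say that the samples were independent biological replicates. Y-linked genes were expressed in mutant replicates 1 and 2 (summed FPKM 57.7 and 55.5) and in none of the other samples (0.0989 to 0.217).

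The promoter windows of these genes are shown because factors of the same families are known to bind one another's regulatory DNA. RefSeq windows on GRCm38.p6, each 300 bases long and reaching from before a RefSeq start to just after it, were at hand for 7 of the 9 genes (10 windows, of which 4 belonged to *Otx2*). The gene coordinates given below are from GENCODE, and their starts can differ. The *Sox2* window ends before the GENCODE start of *Sox2*. Capitals mark the motif that was found, and each line reads 5′ to 3′ on the strand of the gene. The motifs searched on both strands were TAATCC for Otx, TAATTA for other homeodomain proteins, ACAAAG and ACAATG for Sox, and TTTGCAT for POU factors, which bind beside Sox2.
*Sox2*, chr3:34649886-34649912, plus strand: gccccctttcATGCAAAaccctctggc
*Sox1*, chr8:12395527-12395553, plus strand: ccagcgcgccATGCAAAtcaccgccgc
*Sox2*, chr3:34649779-34649804, plus strand: ggggggggatACAAAGgttccccagc
*Otx2*, chr14:48667770-48667795, minus strand: tccatcatttTAATTAtacaattagt
*Otx2*, chr14:48665305-48665330, minus strand: tgtgcccctcGGATTAtctcgttagt
*Emx2*, chr19:59458716-59458739, plus strand: atccccgcacTAATTAggctcatg

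The POU motif, found as its reverse complement, stood in the windows of *Sox1* and *Sox2* and in 4.63% of 32851 windows of all genes. TAATTA, which is its own reverse complement, was found in the window of *Emx2* and in 2 of the *Otx2* windows, and in 5.29% of all windows. TAATCC, here as GGATTA, stood in 1 *Otx2* window and in 7.06% of all windows. ACAAAG stood in the *Sox2* window and in 18.7% of all windows, and ACAATG in 12.6% of all windows but in none of the 10. These are matches of letters only.

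All 9 genes were expressed in every sample, at FPKM from 3.66 to 61.0, and all 9 were among the 10061 genes kept by a filter that asked for more than 5 FPKM throughout at least one group. *Fezf2* and *Otx1* passed it through the mutants alone, since control replicate 2 was at 3.66 and 4.90 FPKM. *Sox2* was the most abundant, with a mean of 43.7 FPKM over the 6 samples. It was followed by *Emx2* at 24.1, *Nkx2-1* at 15.8, *Otx2* at 14.3, *Sox3* at 13.2, *Emx1* at 12.04, *Sox1* at 10.5, *Otx1* at 10.05 and *Fezf2* at 7.58. *Sox2* stood above *Emx2* in 6 of 6 samples, by 0.81 ± 0.51 (SD over samples) in log2(FPKM + 1), and *Otx1* stood above *Fezf2* in 6 of 6, by 0.33 ± 0.26. Each other pair of neighbours in this order differed by less than 1 SD over the samples.

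The controls differed among themselves more than the mutants did in all genes but *Emx2* and *Nkx2-1*. Control replicate 1 had the highest level of the 6 samples in 7 of the 9 genes, against 19.8% of all genes tested, and control replicate 2 the lowest in 8 of the 9, against 18.6%. In 8 of the 9 genes control replicate 1 was more than 2-fold above control replicate 2, as 0.865% of all genes tested were. The 3 mutants lay closer to each other, mostly between these controls. In bulk samples such as these, fewer cells of a type and less RNA per cell cannot be told apart.

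**Figure D1:**
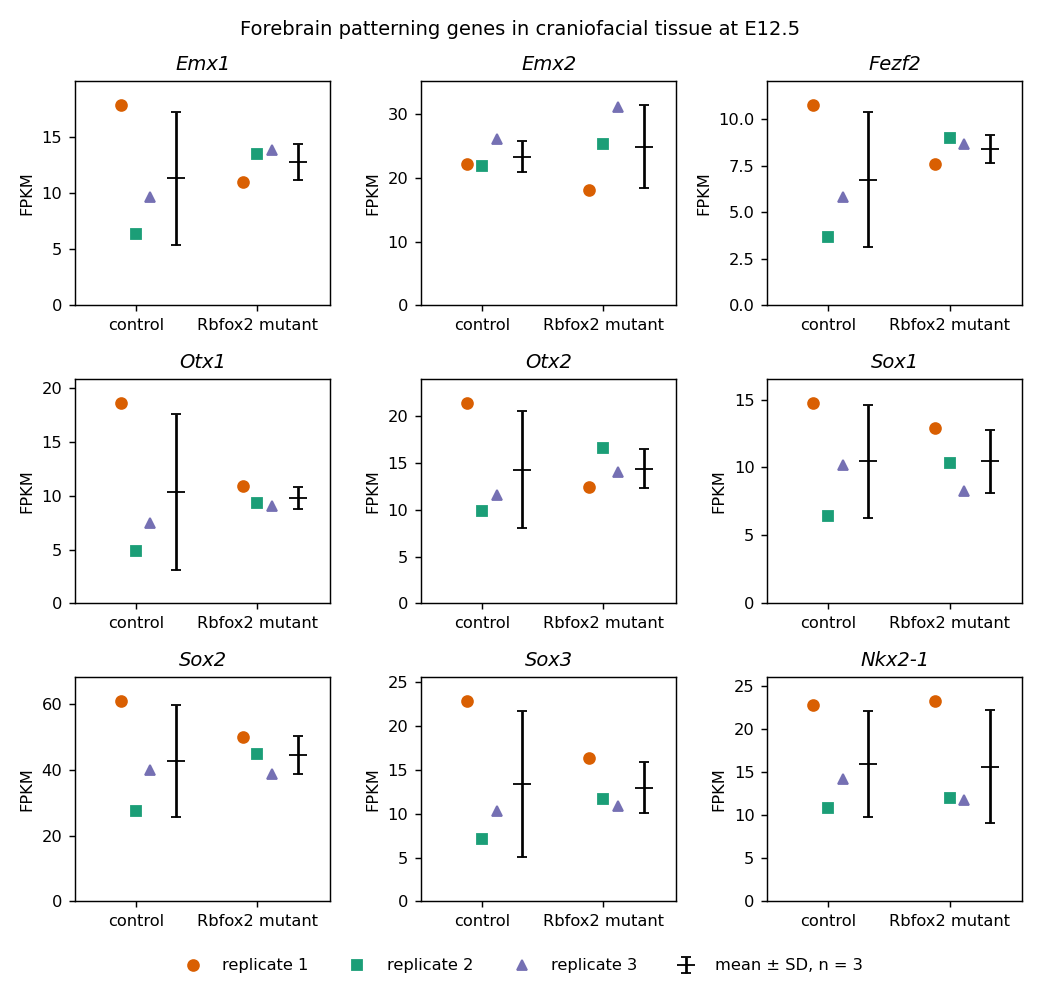
FPKM of each of the 9 genes (y axis) in the controls and the *Rbfox2* mutants (x axis), with replicates 1, 2 and 3 as circles, squares and triangles and the mean ± SD (n = 3) beside them. In 7 of the 9 panels control replicate 1 is the highest point and in 8 control replicate 2 is the lowest; *Emx2* and *Nkx2-1* have another order.

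Among the SOXB1 genes, *Sox2* (ENSMUSG00000074637), which maintains neural progenitors and also acts in sensory and oral epithelia, had FPKM of 61.0, 27.4 and 39.9 in control replicates 1, 2 and 3 and of 50.03, 44.9 and 38.7 in mutant replicates 1, 2 and 3. The controls thus enclosed the mutants. *Sox2* is a gene of 1 exon on the plus strand of chromosome 3 of GRCm38 (34650405 to 34652461), inside the long noncoding RNA gene *Sox2ot* on the same strand. *Sox2ot* was at 15.5, 10.4 and 13.7 in controls versus 12.1, 14.1 and 13.5 in mutants, with the same controls at the top and the bottom. How reads were shared between the overlapping genes is not described, so their values are uncertain. *Sox1* (ENSMUSG00000096014, chromosome 8, 12395295 to 12400126, 1 exon), the SOXB1 gene most restricted to the neural tube, had FPKM of 14.7, 6.44 and 10.2 in controls versus 12.9, 10.3 and 8.25 in mutants. Here too the highest and the lowest sample were controls.

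*Sox3* (ENSMUSG00000045179, X chromosome, 60891366 to 60893430, 1 exon), which is needed for the hypothalamus and pituitary, was at 22.9, 7.13 and 10.3 in controls versus 16.4, 11.7 and 10.9 in mutants. Both first replicates were above the other samples, and the control values spread 3.21-fold. The ratio of *Sox2* to *Sox1* was nearly the same in all samples, from 3.89 to 4.69, while that of *Sox2* to *Sox3* was 2.67 and 3.06 in the first replicates and 3.55 to 3.87 in the others. The SOXB1 genes encode similar proteins, and reads that map to more than one of them could be split between them.

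The Otx genes specify the forebrain and midbrain and also serve the eye, the ear and the nose. *Otx1* (ENSMUSG00000005917, chromosome 11, 21994764 to 22002897) had FPKM of 18.6, 4.90 and 7.50 in controls versus 10.9, 9.30 and 9.07 in mutants. It had the widest range of the 9 genes, 3.79-fold between control replicates 1 and 2, with the mutants close together inside it. *Otx2* (ENSMUSG00000021848, chromosome 14, 48657677 to 48673819), which is also a factor of the choroid plexus and the retinal pigment epithelium, was at 21.4, 9.84 and 11.5 in controls versus 12.45, 16.6 and 14.0 in mutants. Control replicate 1 was highest again, but the order of the mutants was not that of *Otx1*. The ratio of *Otx1* to *Otx2* was 0.870 and 0.876 in the first replicates and 0.498 to 0.650 in the other samples.

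The genes of the dorsal telencephalon were *Emx1* and *Emx2*, which pattern the cortex, and *Fezf2*, which acts in cortical progenitors and later specifies deep-layer projection neurons. *Emx1* (ENSMUSG00000033726, chromosome 6, 85187438 to 85204462) had FPKM of 17.8, 6.39 and 9.67 in controls versus 10.95, 13.5 and 13.9 in mutants. *Fezf2* (ENSMUSG00000021743, chromosome 14, 12342094 to 12348189) was at 10.8, 3.66 and 5.84 in controls versus 7.56, 8.97 and 8.68 in mutants. In both genes control replicate 1 was highest and the mutants were above control replicates 2 and 3. *Emx2* (ENSMUSG00000043969, chromosome 19, 59458372 to 59465357), which is also expressed in the olfactory epithelium and the ear, was at 22.1, 21.7 and 26.0 in controls versus 18.1, 25.3 and 31.1 in mutants. It was the steadiest of the 9 genes, with a 1.72-fold range and its lowest value in mutant replicate 1, and its controls did not show the wide spread of the other genes. The ratio of *Emx2* to *Emx1* therefore ran from 1.24 in control replicate 1 to 3.40 in control replicate 2. *Emx2* overlaps *Emx2os* on the other strand, which was at 1.41 to 1.91 FPKM.

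*Nkx2-1* (ENSMUSG00000001496, chromosome 12, 56531958 to 56536908), the factor of the ventral forebrain and hypothalamus, was at 22.8, 10.8 and 14.2 in controls versus 23.2, 11.96 and 11.7 in mutants. The first replicates of both groups were alike and above every other sample. Its balance with the dorsal gene *Emx2* followed the replicate number more than the genotype, since the ratio of *Emx2* to *Nkx2-1* was 0.969 and 0.780 in the first replicates and 1.83 to 2.65 in the others. These ratios were chosen after the values were seen and were not tested. The thyroid gene *Tg*, which encodes thyroglobulin, was at 0.544 FPKM or less in all samples, and the thyroid list of 5 genes summed to 1.83 to 2.96 FPKM.

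Between genotypes no difference was detected in any of the 9 genes. In limma on log2(FPKM + 1), with all 6 samples and no covariates, each had an adjusted p of 1.0 (Benjamini-Hochberg over 10061 genes), and 0 of the 9 had an unadjusted p under 0.05, while 0% of all genes tested had an adjusted p under 0.05 and 1.66% an unadjusted one (167 genes, and 604 with the replicate number as a block, where still 0 of the 9 passed). The groups overlapped in 9 of 9 genes, where they did not overlap in 5.0% of all genes tested. The smallest exact two-sided permutation p was 0.40 for *Fezf2*, in a design whose smallest possible p is 0.10.

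The fold change was above 0 in 8 of the 9 genes and below 0 in *Nkx2-1*, in these 6 samples and under median ratio scaling and quantile normalization alike, with a median of 0.087 against 0.0057 over all genes tested. These are differences between means of log2(FPKM + 1). On the FPKM scale the mutant mean was 94.5% of the control mean for *Otx1*, 96.7% for *Sox3* and 98.2% for *Nkx2-1*, and the means of *Sox1* were equal at 10.5. *Fezf2* had the largest log2 fold change, 0.38 (standard error 0.30, 95% interval -0.33 to 1.10), with a control mean of 6.75 ± 3.63 FPKM and a mutant mean of 8.41 ± 0.743 (SD, n = 3). Leaving out control replicate 2 brought this value to 0.066, and leaving out control replicate 1 to 0.73. *Emx1* followed at 0.27 (standard error 0.31, interval -0.47 to 0.997). The estimate for *Otx1* was 0.11 and its interval the widest, from -0.82 to 1.04. For *Emx2*, the most precise in this fit without a block, the log2 fold change was 0.062 with an interval of -0.37 to 0.50. The standard errors ran from 0.19 to 0.39, against a median of 0.105 over all genes tested, and the spread within groups placed the 9 genes between the 90.5th and the 99.5th percentile of all genes. With the replicate number as a block they ran from 0.090 for *Nkx2-1* (interval -0.25 to 0.19) to 0.29 for *Emx1*, against a median of 0.069. All of these intervals too included 0.

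**Figure D2:**
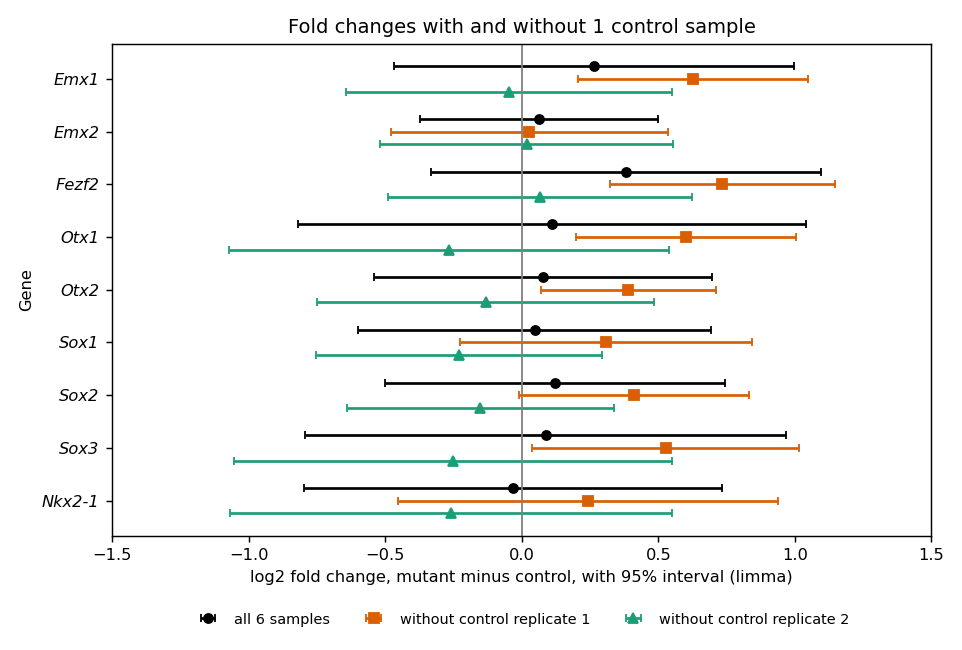
Log2 fold change of each gene (mutant minus control, x axis) with its 95% interval from limma, over all 6 samples (circles), without control replicate 1 (squares) and without control replicate 2 (triangles). All intervals over the 6 samples include 0; without control replicate 1 those of *Emx1*, *Fezf2*, *Otx1*, *Otx2* and *Sox3* lie above 0.

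The sign of the difference depended on which sample was left out. Without control replicate 1, the fold changes were above 0 in all 9 genes and 5 of the 9, *Emx1*, *Fezf2*, *Otx1*, *Otx2* and *Sox3*, had an unadjusted p under 0.05 as higher in the mutants (log2 fold changes of 0.39 to 0.73), against 3.00% of all genes tested in that fit. None had an adjusted p under 0.05, the smallest being 0.703 in limma. Without control replicate 2 the fold change turned negative in *Emx1*, *Otx1*, *Otx2*, *Sox1*, *Sox2* and *Sox3*, and the median over the 9 genes was -0.15. The sign also turned without control replicate 3 (*Otx1*, *Otx2* and *Sox3*), mutant replicate 1 (*Sox1* and *Sox3*), mutant replicate 2 (*Otx2* and *Nkx2-1*) or mutant replicate 3 (*Emx2* and *Nkx2-1*). With replicates 2 and 3 alone, 4 of the 9, *Emx1*, *Fezf2*, *Otx1* and *Otx2*, had an unadjusted p under 0.05 as higher in the mutants, against 5.27% of all genes tested, and their adjusted p was 0.375 to 0.414 in limma. *Fezf2* and *Otx1* passed the filter of this fit, and of the fit without control replicate 1, only through the mutants.

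Between samples of the same replicate number the genes moved in opposite directions. Mutant replicate 1 was below control replicate 1 in 8 of 9 genes, with a median difference of -0.46 in log2(FPKM + 1), and more than 1.5-fold below in 3 of them (*Emx1*, *Otx1* and *Otx2*), as were 0.636% of all genes tested. Mutant replicate 2 was above control replicate 2 in 9 of 9 genes, with a median of 0.69, and more than 1.5-fold above in 7, as were 1.80% of all genes. *Fezf2* differed most, at 1.10. Mutant replicate 3 was above control replicate 3 in 6 of 9 genes, with a median of 0.25, and 0 of the 9 passed 1.5-fold, against 0.596% of all genes. The dorsal genes *Emx1* and *Fezf2* were higher in mutant replicate 3 by 0.48 and 0.50, while *Sox1* and *Nkx2-1* were lower by 0.28 and 0.26. Over all genes tested the median difference was -0.014, 0.006 and 0.015 for replicates 1, 2 and 3.

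**Figure D3:**
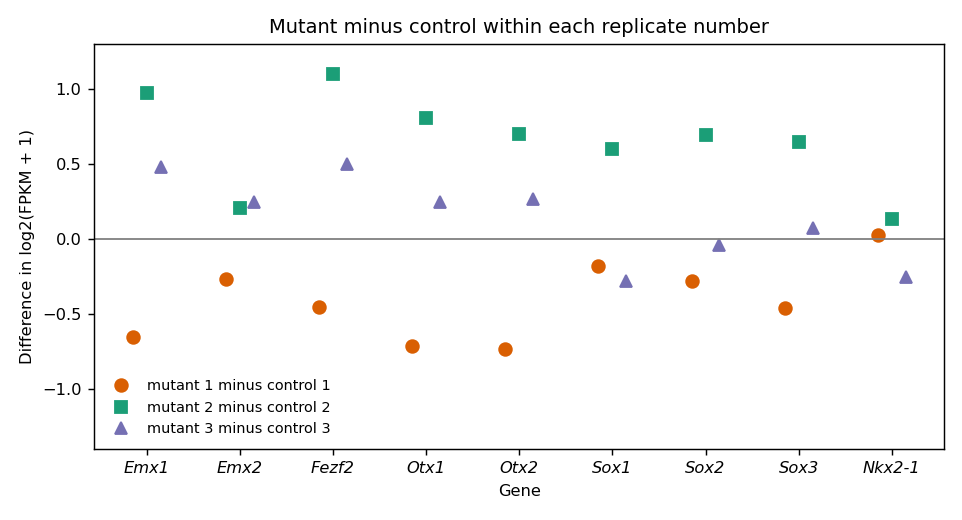
Difference in log2(FPKM + 1) between the mutant and the control of the same replicate number (y axis) for each gene (x axis), with replicates 1, 2 and 3 as circles, squares and triangles. In replicate 1 all genes but *Nkx2-1* lie below 0 and in replicate 2 all 9 lie above 0.

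To place the samples on 1 scale, the log2(FPKM + 1) of each gene was centred on its mean over the 6 samples and averaged over the 9 genes. This score was 0.548, -0.591 and -0.144 in control replicates 1, 2 and 3 and 0.134, 0.060 and -0.007 in the mutants. Control replicates 1 and 2 were the extremes, and the mutants fell between them. The group means were -0.062 ± 0.574 in controls and 0.062 ± 0.070 in mutants (SD, n = 3), so the difference of 0.125 was smaller than the spread among controls. With any 1 of the 9 genes left out, control replicate 1 kept the highest score and control replicate 2 the lowest. Summed over the 9 genes, the FPKM was 212, 98.4 and 135 in controls versus 162, 153 and 146 in mutants.

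Other regulators of the telencephalon shared the control extremes of the 9 genes but not the order of the mutants, with scores of 0.404, -0.615 and -0.092 in control replicates 1, 2 and 3 and of -0.021, 0.217 and 0.107 in mutant replicates 1, 2 and 3. All 12 genes of this list had a mean FPKM over 1, and 11 of them were lowest in control replicate 2 and 7 highest in control replicate 1. *Lhx2*, a selector gene of the cortex, was at 90.0, 28.1 and 46.4 FPKM in controls versus 57.6, 69.3 and 69.9 in mutants. *Pax6*, of cortical progenitors and the eye, was at 30.0, 18.0 and 29.9 in controls versus 20.8, 35.8 and 34.0 in mutants. The control extremes of *Lhx2* were those of the 9 genes, while *Pax6* was highest in mutant replicate 2. Of the 10 regulators tested, 9 had a fold change above 0, with a median of 0.19, and 0 had an unadjusted p under 0.05.

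The 8 regulators of the diencephalon and eye field were lower, between 1.49 and 7.84 FPKM on average, and 6 of them were highest in control replicate 1. *Six3* ran from 6.09 in control replicate 2 to 10.4 in control replicate 1. Of 6 midbrain and hindbrain regulators, *Fgf17* was at 3.03 to 3.83 FPKM, *En1* at 0.743 to 1.41, *Gbx2* at 0.608 to 2.30 and *Wnt1*, *En2* and *Pax5* at 0.326 or less, and the list summed to 5.16 to 7.53. General markers of neural progenitors had a median range of 1.74-fold over the samples, against 2.29-fold for the 9 genes, and 8 of the 9 markers were lowest in control replicate 2. *Hes5*, a Notch target that keeps progenitors from differentiating, ranged most, 3.65-fold, from 11.8 FPKM in control replicate 2 to 43.0 in control replicate 1. The most abundant markers varied less. *Fabp7*, a protein of radial glia, was at 253, 160 and 246 FPKM in controls versus 250, 321 and 205 in mutants, and *Msi1*, an RNA-binding protein of progenitors, was at 97.8, 62.6 and 83.7 in controls versus 88.4, 96.1 and 93.8 in mutants. *Nes*, the filament protein nestin, was lowest in mutant replicate 1. All 8 tested markers of this list had a fold change above 0 (median 0.20), and 0 had an unadjusted p under 0.05.

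**Figure D4:**
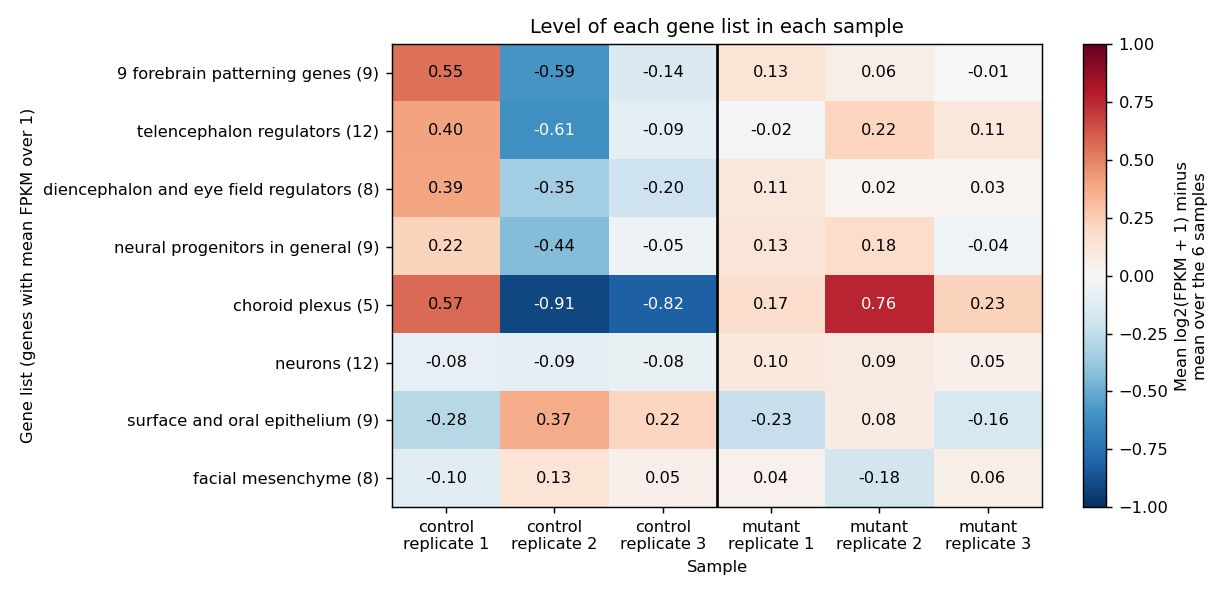
Mean of log2(FPKM + 1) over each gene list (rows, number of genes with a mean FPKM over 1 in parentheses) minus its mean over the 6 samples (columns). The upper 4 rows are highest in control replicate 1 and lowest in control replicate 2, the neuron row varies little, and the epithelium row is highest in control replicate 2.

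The score of the neuron genes did not follow that of the 9 genes. It was -0.084, -0.090 and -0.076 in control replicates 1, 2 and 3 and 0.105, 0.093 and 0.052 in the mutants, with the groups apart and the samples of each group close together. Single neuron genes shared the low control in part. Of the 12, 7 were lowest in control replicate 2, against 18.6% of all genes tested, and 0 were highest in control replicate 1, against 19.8%. Of 11 neuron genes tested, 10 had a fold change above 0, with a median of 0.18 against 0.0057 over all genes tested. Of the 11, 4 (*Tubb3*, *Dcx*, *Elavl3* and *Map2*) had an unadjusted p under 0.05 in limma as higher in the mutants, against 0.706% of all genes tested. None had an adjusted p under 0.05 in limma. *Tubb3*, a tubulin of young neurons, was at 392, 322 and 366 FPKM in controls versus 402, 498 and 466 in mutants. The choroid plexus score covers the 5 of 8 listed genes with a mean FPKM over 1. It was 0.569, -0.913 and -0.820 in control replicates 1, 2 and 3, and 0.172, 0.764 and 0.228 in mutant replicates 1, 2 and 3. *Ttr*, which encodes transthyretin, was at 56.1, 1.04 and 1.91 FPKM in controls versus 27.4, 67.6 and 22.9 in mutants. Control replicate 1 was thus high in *Ttr* and in the list score, below mutant replicate 2 alone. *Ttr* ranged 65.0-fold, the most of the genes in this score. *Aqp1*, the other gene of the list that was tested, ran otherwise. It was at 6.59, 9.32 and 8.39 FPKM in controls versus 5.47, 9.59 and 5.33 in mutants. The log2 fold change was 2.37 for *Ttr* and -0.254 for *Aqp1*.

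Markers of other tissues were measured beside the 9 genes. The surface and oral epithelium list ran the other way, with scores of -0.278, 0.374 and 0.217 in control replicates 1, 2 and 3 and -0.233, 0.081 and -0.161 in the mutants, and 8 of its 9 genes were highest in control replicate 2. The share of all genes that were highest in that sample was not counted. Between genotypes 8 of the 9 had a fold change below 0, with a median of -0.19 against 0.0057 over all genes tested. Of them 1, *Perp*, had an unadjusted p under 0.05 in limma (log2 fold change -0.33, adjusted p 1.0). *Krt5*, a keratin of basal epithelial cells, was at 39.2, 77.6 and 63.3 FPKM in controls versus 36.9, 58.7 and 35.6 in mutants. Summed over the list, the epithelium FPKM ranged from 148 to 261 in controls and from 150 to 207 in mutants. Facial mesenchyme varied less, with sums of 401 to 462 in controls and 367 to 448 in mutants. For the eye, the list of retina, pigment cell and lens genes summed to 109 to 199 FPKM in controls and 90.5 to 237 in mutants, and its lens gene *Cryaa* was highest in mutant replicate 2. Of the olfactory list, *Omp* and *Cnga2* were at 0.271 FPKM or less and *Fezf1* at 6.44 to 10.2, and the sums were 15.8 to 17.3 in controls and 15.5 to 16.5 in mutants. The anterior pituitary list summed to 7.62 to 8.34 in controls and 7.79 to 8.64 in mutants, with *Pou1f1* listed at 0 in all samples. The part of each tissue in the values of the 9 genes was not tested.

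Among the other genes that passed the filter, the 10 whose centred log2(FPKM + 1) lay closest to the score of the 9 genes over the 6 samples included *Fam181b*, *Crb2*, *Cenpw*, *Gpr56*, *Id4*, *Gpm6a*, *Phf21b*, *Sema5b* and *Nrn1*, with root mean square differences from 0.059 for *Fam181b* to 0.104 for *Nrn1*. *Crb2*, an apical polarity protein, had FPKM of 7.52, 3.23 and 4.62 in controls versus 5.54, 5.74 and 5.58 in mutants. *Id4*, an inhibitor of differentiation factors, was at 83.7, 33.6 and 52.6 and at 66.6, 63.0 and 56.3. Both had the order of control replicates 1, 3 and 2 with the mutants between. This order follows from how the genes were picked, by closeness to the score over the same samples. Of the 9 genes themselves, *Sox2* lay closest to the score that it is part of, at 0.071, and *Nkx2-1* and *Emx2* farthest, at 0.284 and 0.432.

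The score was also used as a covariate in the comparison of genotypes, a fit chosen after the data were seen. The limma fit with it gave 0 genes at an adjusted p under 0.05. At an unadjusted p under 0.05 it gave 277, split into 123 with higher and 154 with lower levels in mutants. The log2 fold change of *Rbfox2* was -0.75 (standard error 0.079) without the score and -0.73 (standard error 0.072) with it. The score differed between the groups by only 0.125, against an SD of 0.574 among controls. The fit thus left little room for this value to move, and no conclusion is drawn from it.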

How the data were processed

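Per the labels and the study's methods, stranded poly(A)+ libraries were sequenced as paired ends and aligned to GRCm38 with STAR. The submitters' processing notes also name FastQC 0.11.4 and Cuffdiff. The step and annotation that gave the gene values are not given in the sources used here. The authors deposited FPKM values in 6 tables of single samples and in 1 joint table, and the values were identical between them (0 differences). Samples were grouped by genotype and numbered from their titles.

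Values were taken to log2(FPKM + 1), a scale that understates changes of low genes. A gene was kept where every control or every mutant exceeded 5 FPKM, a limit that the study applied to transcripts in its Cuffdiff comparison and that is used here on genes (10061 kept). Kept genes were compared with limma 3.58.1 (R 4.3.3), using an intensity trend without covariates, and p-values were Benjamini-Hochberg adjusted. The limma step was tested on simulated data whose spread was capped below that of all of the 9 genes but *Emx2*. The planted changes were larger than the fold changes of the 9 genes, so the test does not show how well such changes would be detected in them. For single genes an exact permutation test (two-sided) was added. Coordinates, exons and overlaps are from GENCODE M21, also on GRCm38. Deviations from group means, across genes, correlated at 0.644, 0.258 and 0.513 between samples numbered 1, 2 and 3, which met the rule used for pairing (over 0.1 in every pair). Unlike numbers gave -0.685 to 0.401, and mutant replicate 2 correlated more with control replicate 3 (0.401) than with control replicate 2, so the numbers mainly set replicate 1 apart from 2 and 3. Alternatives were another pseudocount, other filters, median ratio and quantile scaling, no trend, the replicate block, a covariate for Y-linked expression, replicates 2 and 3 only and each sample left out. The methods state that littermates were analysed in general, and neither they nor the labels say which samples shared a litter.

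The 9 genes, the 13 marker lists and the alternatives were chosen with earlier results of these data known. Named genes are the 9, *Rbfox2*, the most abundant genes of each list, and the 10 genes most like the score. Others are named as examples of a count or a low value, after their values were seen. Some genes that the rule would name are not reported here.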

Additional observations from a re-analysis of the deposited data

How the results depend on the processing

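No alternative brought any of the 9 genes past an adjusted p of 0.05 in limma. The count of all genes past that threshold was 0 except with replicates 2 and 3 only, where it was 4 (*Fkbp7*, *Cdk5rap1*, *Rbfox2* and *4833420G17Rik*), and without mutant replicate 3, where it was 5 (*Kdm5d*, *Uty*, *Ddx3y*, *Eif2s3y* and *Xist*), so that with 1 sample left out it ran from 0 to 5. The count at an unadjusted p under 0.05, 167 over all samples, was 304 with an FPKM filter of 1, 663 with no filter, 604 with the replicate block, 1130 with replicates 2 and 3 only and 277 with the score as a covariate. With 1 sample left out it ran from 78 (without control replicate 2) to 690 (without control replicate 1), with 414 without mutant replicate 1 and 110 without mutant replicate 2.

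The median log2 fold change of the 9 genes, 0.087, moved between -0.15 and 0.41 with 1 sample left out, was 0.36 in replicates 2 and 3 only and 0.025 with the Y-linked covariate, and stayed between 0.082 and 0.10 under the other alternatives. The difference in score, 0.125, ran from -0.14 to 0.43 with 1 sample left out and was 0.394 in replicates 2 and 3 only. The fold change of *Fezf2*, 0.38, stayed above 0 in every alternative but fell to 0.066 without control replicate 2 and was 0.73 without control replicate 1 and 0.80 in replicates 2 and 3 only. Those of *Sox1*, *Sox2* and *Sox3* changed sign to -0.24, -0.067 and -0.13 with the Y-linked covariate, a fit whose genotype term rests on mutant replicate 3, since the other mutants express Y-linked genes. With 1 sample left out, the fold changes ran from -0.048 to 0.63 for *Emx1*, from -0.11 to 0.26 for *Emx2*, from -0.27 to 0.60 for *Otx1*, from -0.13 to 0.39 for *Otx2*, from -0.23 to 0.31 for *Sox1*, from -0.15 to 0.41 for *Sox2*, from -0.25 to 0.53 for *Sox3* and from -0.34 to 0.24 for *Nkx2-1*. The causes were not tested. The replicate block changed no other call, but lowered the standard error of each of the 9 genes. Leaving a sample out leaves 2 in its group. The files hold no read counts, and counting error was not separated from the spread between samples.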
